A study of Mus musculus with 23 samples.

Results

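The arterial and venous identity genes followed here are 3 connexin genes (Gja4, Gja5 and Gja1), the ephrin gene Efnb2 and its receptor gene Ephb4, the venous transcription factor gene Nr2f2, and Unc5b, Bmx and Aqp1. They were chosen by symbol, through the accession that the array gives for each probe, and each gene was read by its probe with the highest mean level. All 9 genes had a probe, among 20145 genes with one, and all 9 were among the 15202 genes tested.

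The samples came from a mouse embryonic stem (ES) cell line, labelled C57BL/6, with wild-type Runx1 and a transgene for HA-tagged human RUNX1-ETO, the leukaemic fusion of the DNA-binding part of RUNX1 with ETO, under a promoter that responds to doxycycline (Dox). Flk1+ cells were seeded in blast culture, and on day 2 haemogenic endothelium (HE; KIT+Tie2+CD41-), HE2 cells (KIT+Tie2+CD41+) and CD41+ progenitors (KIT+Tie2-CD41+) were sorted, either uninduced or with 0.1 μg per ml of Dox from day 1. Myeloid progenitors were floating progenitors moved to expansion medium on day 2 and harvested on day 3, either uninduced or after 12 h in the same concentration of Dox. Each of these 8 groups had 3 arrays, except for 2 arrays each of uninduced and of induced CD41+ progenitors. All groups carried the transgene, and the line was grown from picked ES cell colonies. A line without the transgene was not analysed here, so that effects of Dox and of RUNX1-ETO cannot be told apart. The labels call the arrays biological replicates without naming separate cultures, and the P values measure the spread between these arrays.

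Arteries and veins differ in the genes of their endothelium before blood flow shapes them. Arterial endothelial cells make ephrin-B2, the membrane ligand of EphB4, which venous cells make, and contact between the ligand and the receptor keeps the vessel types apart. COUP-TFII, the product of Nr2f2, holds Notch signalling down in veins, while Notch and SOXF factors drive the arterial genes, the connexin genes Gja4 and Gja5 among them. Haemogenic endothelium gives rise to blood cells in the endothelial-haematopoietic transition and in the embryo lies largely in arteries.

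Between 48.8 and 78.4% of the spots on each of the 23 arrays were well above background, and no spot was saturated. Every member was well above background on all 22 arrays compared, apart from Nr2f2, which was so on 21 arrays. Levels are given as log2 intensity after quantile normalization, and changes as differences of log2 levels with the standard error (SE) of the fit. A gene was called when its unadjusted P was at most 0.001 and its change at least 2-fold, and adjusted P values are those of limma after Benjamini-Hochberg adjustment over all genes tested. HE, HE2 and both fitted uninduced CD41+ progenitor arrays lay on slides 1 and 2, and induced CD41+ progenitor array 1 on slide 1. Induced CD41+ progenitor array 2, all myeloid progenitor arrays and an additional uninduced CD41+ progenitor array, which was not fitted, lay on slide 3. As a check of the labels, the probe for Runx1t1, the mouse gene for ETO, was higher by 2.08 with Dox in HE2, by 3.96 in CD41+ progenitors and by 2.06 in myeloid progenitors (all called), and by 1.24 in HE, which was not called. Whether this probe detects the human transgene is not given in the sources used here. Of the genes of the sort, Itga2b (CD41) measured 10.703 ± 1.06 (SD, n = 3) in uninduced HE and 11.81 ± 0.66 (SD, n = 3) in uninduced HE2 and was not called between them, and it was lower by 3.21 with Dox in HE (called). Tek (Tie2) was above background in the Tie2- progenitors, at 8.67 ± 0.06 (SD, n = 2).

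Markers of several cell types moved with Dox beside the genes described here. Of all genes tested, 7.09% were called with Dox in HE, 7.22% in HE2, 3.73% in CD41+ progenitors and 6.31% in myeloid progenitors. The summed level of 8 endothelial markers was 15.47 to 15.98 in uninduced and 16.80 to 16.89 in induced HE2, 14.49 to 14.56 and 15.36 to 15.62 in CD41+ progenitors, and 13.43 to 13.89 and 15.54 to 15.79 in myeloid progenitors. In HE the 2 ranges overlapped (16.20 to 17.23 and 16.37 to 17.18). Of these 8 markers, 1 rose with Dox in HE, 3 in HE2, 3 in CD41+ progenitors and 6 in myeloid progenitors, and none fell. The 10 mesenchyme and muscle markers summed to 16.68 to 17.85 in uninduced and 15.20 to 15.62 in induced HE (2 rose and 4 fell), and to 14.93 to 16.69 and 13.57 to 13.68 in HE2 (5 fell). The 7 erythroid markers summed to 15.11 to 15.46 in uninduced and 17.42 to 18.42 in induced HE (2 rose), and to 16.28 to 16.72 and 18.51 to 18.78 in HE2 (4 rose). Of 4 epithelial markers, 2 were tested, of which 1 fell in HE and both in HE2. Of 7 blood markers, Itga2b among them, 2 fell with Dox in HE, 2 in HE2 and 1 in CD41+ progenitors. None of the blood markers rose, and none was called in myeloid progenitors, where 4 of the 7 had an unadjusted limma P of at most 0.05. These 4 were lower with Dox: Spi1 (-1.39), Ptprc (-0.84), Vav1 (-0.79) and Itgb2 (-0.67). Levels of RNA from a sorted population do not tell fewer cells of a type apart from less RNA in each cell, and the part of these cell types in the results below was not tested.

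**Figure D1:**
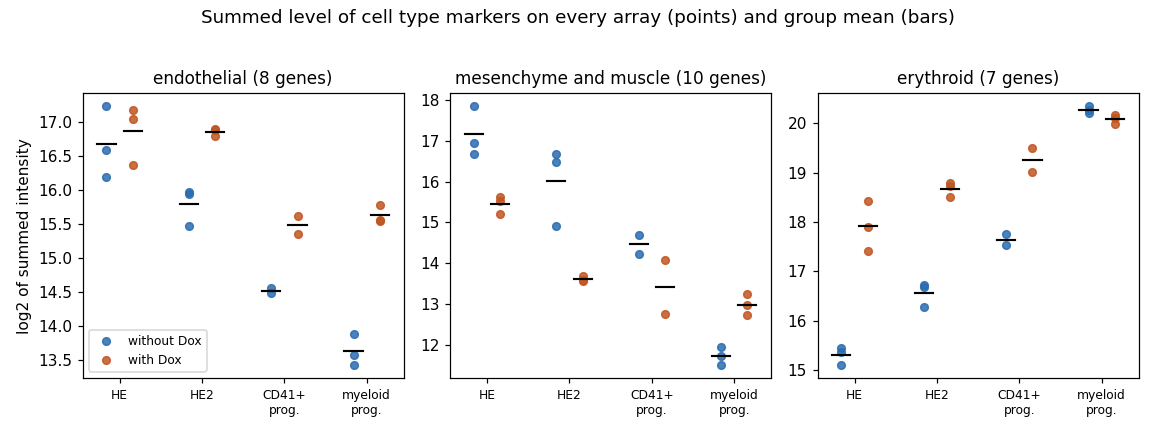
Log2 of the summed intensity of the endothelial, the mesenchyme and muscle, and the erythroid markers (y axes, which differ between panels) on every array of the 4 populations, without Dox in blue and with Dox in orange. Points are arrays and bars are group means. With Dox the mesenchyme and muscle sum was lower in HE and HE2 on every array, and the endothelial sum was higher on every array of HE2, CD41+ progenitors and myeloid progenitors.

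The question of the first comparison was which of the 9 genes answered to RUNX1-ETO in each population. In HE, where 7.09% of all genes tested were called (4.7% up and 2.39% down), 3 members fell (Gja4, Nr2f2 and Unc5b) and none rose. In HE2, with 7.22% of all genes called (5.17% up and 2.05% down), Efnb2 and Ephb4 rose and Unc5b fell. In CD41+ progenitors, with 3.73% called (3.03% up and 0.704% down), Gja4, Efnb2 and Aqp1 rose, and in myeloid progenitors, with 6.31% called (5.13% up and 1.18% down), Gja4, Efnb2, Ephb4 and Aqp1 rose. No member fell in either of the progenitor populations, and Gja5, Gja1 and Bmx were not called with Dox in any population. The median change of the 9 genes was -1.32 in HE, -0.02 in HE2, 0.56 in CD41+ progenitors and 0.22 in myeloid progenitors, while that of all genes tested lay between -0.04 and -0.01. The 13 calls were those of 36 pairs of a member and a population, and 8 pairs were called when each fit held only the arrays of its own population.

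**Figure D2:**
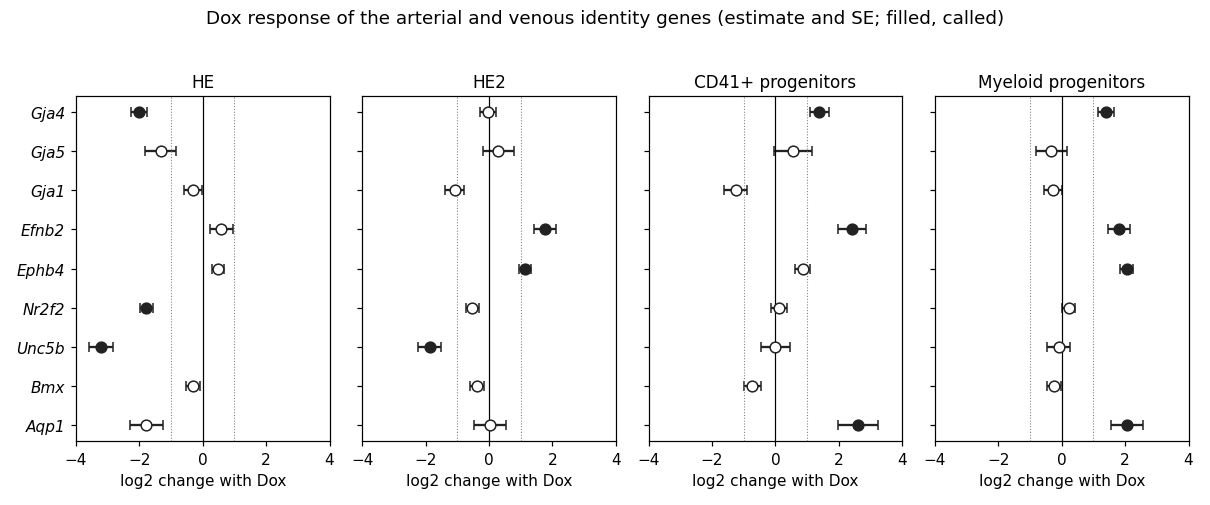
Change in log2 level with Dox (x axis) of each of the 9 genes (y axis) in HE, HE2, CD41+ progenitors and myeloid progenitors. Points are estimates and bars their SE; filled points were called, and dotted lines mark a 2-fold change. The calls in HE lie to the left of 0 and those in both progenitor populations to the right.

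Gja4 encodes a connexin, a gap junction protein of arterial endothelium, and had the change of direction with stage that is clearest in the plot of Dox responses. The 3 HE arrays measured 13.81, 13.73 and 13.998 without Dox and 11.51, 11.90 and 12.07 with it. In HE2 the levels were 12.61, 12.55 and 12.22 without and 12.63, 12.19 and 12.49 with Dox. All induced HE arrays were thus below all uninduced ones, whereas the HE2 arrays overlapped. In CD41+ progenitors Gja4 measured 9.91 and 9.67 without and 11.50 and 10.84 with Dox, and in myeloid progenitors 9.48, 10.57 and 10.21 without and 11.72, 11.50 and 11.19 with Dox. In these later populations the induced arrays were all above the uninduced ones. The change was -2.02 (SE 0.25; adjusted P = 2.11e-05) in HE, or 4.06-fold lower, and -0.02 (SE 0.25; adjusted P = 0.969) in HE2. It was 1.38 in CD41+ progenitors (SE 0.31; adjusted P = 0.0105) and 1.38 in myeloid progenitors (SE 0.25; adjusted P = 0.000871). The call in CD41+ progenitors was lost without any of uninduced array 1 (1.502), uninduced array 2 (1.27) or induced array 1 (1.05). The call in myeloid progenitors was lost when early stages and myeloid progenitors were normalized apart (1.30; adjusted P = 0.0125) and in the fit of only its 2 groups (adjusted P = 0.0114).

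Across the 8 groups, Gja4 was highest in uninduced HE and lowest in uninduced CD41+ progenitors (9.79 ± 0.17; SD, n = 2), and uninduced HE did not overlap with the next group in that order. HE2 with and without Dox overlapped, as did induced HE, induced myeloid and induced CD41+ progenitors in that order, and both uninduced progenitor populations.

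Gja5 encodes the other connexin typical of arterial endothelium. It measured 8.16, 9.31 and 9.81 in uninduced HE and 7.42, 7.60 and 8.30 in induced HE, a change of -1.32 (SE 0.49; adjusted P = 0.0796) with overlapping arrays. Changes with Dox in the other populations were between -0.33 and 0.56, and none was called. From HE to HE2 without Dox it was lower on all arrays (7.32, 7.65 and 7.94 in HE2; change -1.46, SE 0.49; adjusted P = 0.0665), and this change passed the threshold with the replicate number as a block (-1.46; adjusted P = 0.0119). Its level was highest in uninduced HE (9.09 ± 0.85; SD, n = 3) and lowest in uninduced CD41+ progenitors (5.77 ± 0.25; SD, n = 2), and all neighbours in the order of group means overlapped. Gja5 also had a second probe with a lower mean (5.69), well above background on 17 arrays and not called in any comparison. That probe differed by 0.05 with Dox in HE and by -0.11 from HE to HE2 without Dox. From HE2 to CD41+ progenitors without Dox it differed by -0.04.

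Gja1 encodes a connexin that is made in many tissues, mesenchyme and ES cells among them. In HE2 it measured 8.80, 9.39 and 8.42 without and 7.85, 7.88 and 7.63 with Dox. In CD41+ progenitors the levels were 9.46 and 8.52 without and 8.10 and 7.37 with Dox. Induced arrays lay below uninduced arrays in both populations, and the changes of -1.08 (SE 0.29; adjusted P = 0.0159) and -1.25 (SE 0.36; adjusted P = 0.0489) missed the threshold for a call. The first was called without uninduced HE2 array 3 (-1.31) or either uninduced CD41+ progenitor array (-1.08), and the second without uninduced CD41+ progenitor array 2 (-1.72). Gja1 differed from the other 2 connexins in its order of levels, with uninduced CD41+ progenitors, HE2 and HE at the top (8.99, 8.87 and 8.87, overlapping) and both myeloid groups at the bottom (6.91 and 6.64, overlapping). It fell by 2.07 from CD41+ to myeloid progenitors without Dox (SE 0.33; adjusted P = 0.000126), and with the slide as a block this change was -1.51 and not called. On slide 3, the additional uninduced CD41+ progenitor array measured 8.49 and the uninduced myeloid progenitor arrays 6.64 to 7.25.

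Efnb2, the gene of the arterial ligand ephrin-B2, rose with Dox in every population except HE. Its HE2 arrays measured 10.36, 10.36 and 10.47 without and 11.95, 12.21 and 12.34 with Dox. CD41+ progenitor arrays measured 7.43 and 7.19 without and 9.98 and 9.45 with Dox. In myeloid progenitors the levels were 7.09, 8.70 and 8.07 without and 9.72, 9.84 and 9.71 with Dox. No induced array overlapped with an uninduced array in these 3 populations. The changes were 1.77 (SE 0.36; adjusted P = 0.00185) in HE2, 2.41 (SE 0.44; adjusted P = 0.00223) in CD41+ progenitors, or 5.30-fold, and 1.81 (SE 0.36; adjusted P = 0.00168) in myeloid progenitors. In HE the levels overlapped, at 11.43, 11.99 and 12.96 without and 13.13, 12.42 and 12.59 with Dox (change 0.59; adjusted P = 0.328), and the difference was 1.42 within slide 1 and -0.45 within slide 2. Without induced CD41+ progenitor array 1 the change there was 2.14 and not called. A second probe for Efnb2 with a lower mean, well above background on 19 arrays, was not called with Dox in any population. That probe differed by 0.05 in HE, 0.45 in HE2, -0.52 in CD41+ progenitors and 0.44 in myeloid progenitors. With the mean of both probes the changes in HE2, CD41+ and myeloid progenitors were 1.11, 0.94 and 1.12, none of them called.

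Ephb4, the gene of the venous receptor for ephrin-B2, was also higher with Dox in every population. Uninduced and induced HE2 arrays measured 13.49, 13.20 and 12.87, and 14.13, 14.31 and 14.49. For myeloid progenitors these levels were 10.17, 10.27 and 10.02, and 12.46, 12.10 and 12.03. The groups did not overlap, and the changes were 1.12 (SE 0.19; adjusted P = 0.000513) in HE2 and 2.04 (SE 0.19; adjusted P = 1.02e-06) in myeloid progenitors, or 4.12-fold. In HE (13.95, 13.97 and 13.91 without; 14.57, 14.25 and 14.43 with Dox) and in CD41+ progenitors (11.82 and 11.94 without; 13.09 and 12.39 with Dox) the induced arrays were again all higher. Those changes of 0.47 (adjusted P = 0.117) and 0.86 (adjusted P = 0.0386) were not called. The HE2 call was lost without uninduced HE2 array 3 (0.97), with scaling to the 75th percentile (0.96) and with the mean of both Ephb4 probes (0.88). A second Ephb4 probe differed by 1.80 with Dox in myeloid progenitors (unadjusted P = 0.00253 with limma), which was not called. The change in CD41+ progenitors was called without induced array 2 (1.21) and with the slide as a block (1.17).

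Efnb2 and Ephb4 shared the order of their highest groups, induced HE, induced HE2, uninduced HE and uninduced HE2, and their 8 group means correlated with r = 0.906, where the points share arrays and normalization. For Efnb2 the induced HE2 and uninduced HE arrays overlapped, and for Ephb4 the induced HE and induced HE2 arrays. From CD41+ to myeloid progenitors without Dox they parted, with 0.64 for Efnb2 and -1.73 for Ephb4. Because this ligand and its receptor both rose with Dox in HE2 and myeloid progenitors, their promoters are shown. The stretches are the 250 bases before the annotated start sites, from RefSeq on the GRCm38.p6 build. Capitals mark matches, on either strand, to CCAAT and to the GC box GGGCGG, elements that recruit general promoter factors. The Efnb2 stretch is chr8:8661243-8661492 on the minus strand and the Ephb4 stretch chr5:137349859-137350108 on the plus strand.
Efnb2: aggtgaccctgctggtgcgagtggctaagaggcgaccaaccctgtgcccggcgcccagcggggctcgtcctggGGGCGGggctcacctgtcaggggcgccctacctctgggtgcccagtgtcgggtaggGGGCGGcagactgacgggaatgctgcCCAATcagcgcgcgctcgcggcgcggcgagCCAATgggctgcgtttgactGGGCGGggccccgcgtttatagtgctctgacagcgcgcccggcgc
Ephb4: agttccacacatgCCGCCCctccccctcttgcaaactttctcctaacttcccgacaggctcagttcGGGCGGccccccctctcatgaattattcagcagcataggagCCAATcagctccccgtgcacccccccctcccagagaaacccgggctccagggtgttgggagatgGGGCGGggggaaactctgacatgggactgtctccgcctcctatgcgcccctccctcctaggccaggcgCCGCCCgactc
Both stretches hold CCAAT and the GC box. Over windows of 300 bases, from 250 before to 50 after the start, CCAAT was in 37.4% of 32851 promoters and in 3 of the 9 members, and the GC box in 35.7% and in 6 members.

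Nr2f2 encodes COUP-TFII, the transcription factor of venous identity, and fell with Dox in HE. It measured 9.90, 9.88 and 9.62 in uninduced and 8.18, 8.18 and 7.70 in induced HE, with no overlap (change -1.78, SE 0.21; adjusted P = 8.95e-06; 3.43-fold lower). In HE2 the induced arrays (8.07, 8.19 and 8.51) were also all below the uninduced ones (8.93, 8.86 and 8.56), by 0.52 on average (adjusted P = 0.0930), which was not called. Both progenitor populations overlapped between uninduced and induced arrays, at 6.41 to 7.04 in CD41+ and 5.74 to 6.30 in myeloid progenitors, close to the lower end of the levels measured. The fall in HE was called under all alternatives tried, with changes between -1.87 and -1.62. The summed level of the mesenchyme and muscle markers was lower on the same induced HE arrays, where 4 of 10 markers fell and 2, Col3a1 (1.83) and Myl7 (1.16), rose. Mesenchyme also makes COUP-TFII, and its part was not tested.

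Unc5b encodes a netrin receptor of arterial endothelium and of the tip cells of sprouting vessels, and had the largest change with Dox of the 9 genes. Uninduced HE measured 13.46, 13.90 and 13.58, and induced HE 10.56, 10.85 and 9.91. Uninduced HE2 measured 12.26, 12.42 and 11.39, and induced HE2 9.96, 9.94 and 10.55. In both populations the highest induced array was below the lowest uninduced array. The change was -3.21 (SE 0.37; adjusted P = 8.64e-06) in HE, or 9.25-fold lower, and -1.88 (SE 0.37; adjusted P = 0.00157) in HE2, or 3.67-fold lower. Within slides 1 and 2 it was -3.12 and -3.20 in HE, and -2.38 and -1.15 in HE2, and both falls were called under all alternatives tried. The 4 groups of CD41+ and myeloid progenitors overlapped around 8.84, with changes of -0.01 and -0.10 (adjusted P = 0.996 and 0.932).

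Unc5b thus went against Efnb2 and Ephb4 in HE2, and its promoter is shown for comparison with theirs. It lies at chr10:60831582-60831831 on the minus strand of GRCm38.p6, again as 250 bases from RefSeq, with capitals for the ETS motif CCGGAA, which ETS factors of endothelium and blood recognise, and for the GC box.
Unc5b: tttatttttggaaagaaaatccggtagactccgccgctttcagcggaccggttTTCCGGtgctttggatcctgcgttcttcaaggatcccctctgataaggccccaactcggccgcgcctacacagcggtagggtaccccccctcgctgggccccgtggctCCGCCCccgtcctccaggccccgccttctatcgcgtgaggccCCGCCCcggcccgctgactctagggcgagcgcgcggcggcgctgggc
The ETS motif lay 197 bases before the start, was in no other member's window of 300 bases and was in 14.9% of all promoters.

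Bmx encodes a Tec family kinase of arterial endothelium and endocardium. All its group means were between 7.39 and 8.65, and changes with Dox were between -0.74 and -0.24. Uninduced CD41+ progenitors (8.47 and 8.83) were the highest group and did not overlap with uninduced HE (7.97, 7.87 and 8.46), the next in the order. In those progenitors induced arrays were lower (7.90 and 7.93; adjusted P = 0.129), and no comparison called Bmx. A second Bmx probe was well above background on 0 of 22 arrays.

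Aqp1 encodes aquaporin 1, a water channel of endothelium and of the red cell membrane, and its Dox response followed the population. In HE it measured 12.21, 13.08 and 13.73 without and 10.53, 11.68 and 11.48 with Dox. The induced HE arrays were all lower, by 1.77 on average (SE 0.51; adjusted P = 0.0223), which was not called, and which was called with the slide as a block (-2.04; adjusted P = 0.000623) and without uninduced HE array 1 (-2.17) or either induced CD41+ progenitor array (-1.77). HE2 arrays overlapped (10.94, 11.51 and 11.62 without; 10.75, 11.21 and 12.22 with Dox). In CD41+ progenitors Aqp1 measured 5.96 and 6.42 without Dox, below the 6.5 set for testing a gene, and 7.75 and 9.84 with Dox. In myeloid progenitors it measured 8.67, 9.37 and 9.38 without and 11.83, 11.11 and 10.68 with Dox. Here the induced arrays were all higher, by 2.61 (SE 0.62; adjusted P = 0.0168) and 2.07 (SE 0.51; adjusted P = 0.00966).

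The rise of Aqp1 in CD41+ progenitors was 1.57 and not called without induced array 2, which had the lowest share of spots well above background (48.8%) and lay on slide 3. It was also not called without uninduced array 1 (2.38), without uninduced array 2 (2.84) or when the slide entered the fit as a block (1.97), and it was 1.80 within slide 1. With a normexp offset of 50 this rise was 2.185 and with the deposited log2 values 2.24, and neither was called. The rise in myeloid progenitors fell short of a call without any of uninduced arrays 1, 2 and 3 (1.83, 2.18 and 2.19) or induced arrays 1 and 2 (1.75 and 2.12). Its unadjusted P also exceeded 0.001, with the change at 2.07, without uninduced HE array 2, induced HE array 3, uninduced HE2 array 2 or induced HE2 array 2, each of which enters the shared spread. Erythroid markers, summed over 7 genes, were 17.54 to 17.75 without and 19.00 to 19.49 with Dox in CD41+ progenitors, where 3 of them rose. In myeloid progenitors they were 20.20 to 20.34 without and 19.99 to 20.17 with Dox, where none was called.

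RUNX1-ETO keeps the DNA-binding domain of RUNX1, and Aqp1 was the only member whose promoter window held a RUNX motif (TGTGGT or TGCGGT on either strand), which 22.4% of all promoters held. The match was on the strand of the gene and began at base 38 counted from the start site as base 1, and capitals mark it within the 24 bases of chr6:55336325-55336348 (plus strand, GRCm38.p6).
Aqp1: gaggaggctcgTGTGGTgtggggc
The GATA motif AGATAA was in 1 member's window (11.2% of all promoters) and the RBPJ motif TGGGAA in 2 (25.6%). A match of letters is no evidence of binding, and windows without a match leave binding elsewhere unexamined.

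**Figure D3:**
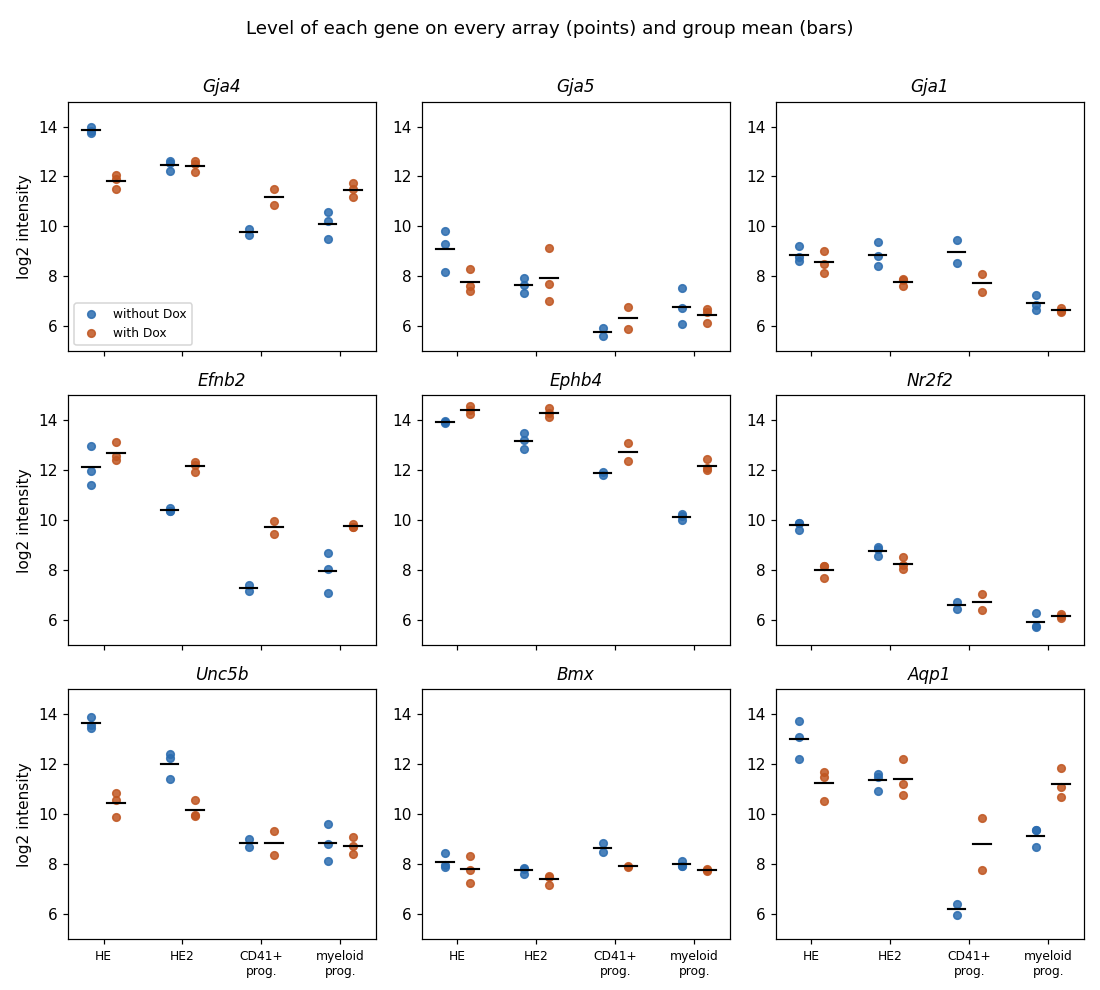
Log2 intensity (y axis, the same in all panels) of the 9 genes in HE, HE2, CD41+ progenitors (prog.) and myeloid progenitors, without Dox in blue and with Dox in orange. Points are single arrays and bars are group means. In HE, Gja4, Nr2f2 and Unc5b are lower with Dox on every array, and in both progenitor populations Gja4, Efnb2, Ephb4 and Aqp1 are higher with Dox on every array.

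The next comparison asked how the genes changed along differentiation, with and without Dox. From HE to HE2 without Dox, where 5.07% of all genes were called (2.39% up and 2.67% down), 4 of 9 members fell: Gja4 by 1.38 (SE 0.25; adjusted P = 0.00150), Efnb2 by 1.73 (SE 0.36; adjusted P = 0.00372), Nr2f2 by 1.02 (SE 0.21; adjusted P = 0.00327) and Unc5b by 1.62 (SE 0.37; adjusted P = 0.00756). Their HE and HE2 arrays did not overlap. With Dox, where 3.1% of all genes were called (1.62% up and 1.47% down), none of the 9 was called by limma, with 2 at an unadjusted P of at most 0.05 (Gja1, -0.77, and Gja4, 0.62). Aqp1 was also lower without Dox (-1.65; adjusted P = 0.0456), short of the threshold, and differed by 0.16 with Dox. Whether these steps differ is the same test as that of the Dox response between HE and HE2, given below, and both share the uninduced HE arrays with the Dox comparison in HE. The call of Efnb2 was lost without uninduced HE array 3 (-1.31), that of Nr2f2 without uninduced HE array 1 (-0.97), uninduced HE array 2 (-0.98) or uninduced HE2 array 3 (-0.90), and that of Unc5b without uninduced HE array 2 (-1.496), uninduced HE array 3 (-1.66) or uninduced HE2 array 3 (-1.31).

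From HE2 to CD41+ progenitors most of the 9 genes fell, 6 without and 5 with Dox, and none rose. Bmx differed by 0.89 and 0.53 and Gja1 by 0.12 and -0.05, none of them called. Without Dox, with 5.39% of all genes called (1.78% up and 3.62% down), 6 members fell, led by Aqp1 with -5.17 (SE 0.57; adjusted P = 9.23e-06; 36.0-fold lower), followed by Unc5b (-3.17), Efnb2 (-3.09), Gja4 (-2.67), Nr2f2 (-2.18) and Ephb4 (-1.31). The uninduced CD41+ progenitor arrays measured Aqp1 at 5.96 and 6.42, below 6.5, the level set for testing a gene, which limits the reading of its fold. The second Efnb2 probe differed by 0.61 in this step without Dox and was not called. With the mean of a gene's probes, Efnb2 (-1.24) and Ephb4 (-1.02) were not called without Dox. Ephb4 was also not called there in the fit of only the groups compared. With Dox, with 7.36% called (2.02% up and 5.34% down), 5 fell: Aqp1 by 2.60, Efnb2 by 2.45, Ephb4 by 1.57, Nr2f2 by 1.53 and Gja4 by 1.26. Unc5b, already lower in induced HE2, differed by -1.31 (adjusted P = 0.0413), short of the threshold. The median of the 9 genes was -2.18 without and -1.53 with Dox, beside -0.02 and -0.05 for all genes. With Dox, the call of Gja4 was lost without induced CD41+ progenitor array 2 (-0.93) and without induced HE2 array 1 (-1.17) or 3 (-1.24), and that of Aqp1 without induced HE2 array 3 (-2.18) or induced CD41+ progenitor array 1 (-1.55). In the fit of only these groups Gja4, Ephb4, Nr2f2 and Aqp1 were not called, and with the slide as a block Gja4 (-0.95) and Efnb2 (-2.06) were not. With the mean of both Ephb4 probes, Ephb4 differed by -1.01 with Dox and was not called.

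From CD41+ to myeloid progenitors, Aqp1 rose by 2.95 without Dox (13.9% of all genes called, 7% up and 6.93% down) and by 2.41 with Dox (7.37% called, 4.86% up and 2.51% down), beside a rise of 7 of 7 erythroid markers without and 3 of 7 with Dox. Without Dox, Ephb4 fell by 1.73 (SE 0.22; adjusted P = 1.1e-05) together with Gja1. The myeloid progenitors were grown in another medium and lay on slide 3, and with the slide as a block none of these 4 changes was called (Aqp1 1.27 and 1.36, Ephb4 -1.07, Gja1 -1.51). The rise of Aqp1 was also not called without Dox when uninduced CD41+ progenitor array 1 was left out (2.72), nor with Dox without induced myeloid array 1 (2.10), induced myeloid array 2 (2.46) or induced CD41+ progenitor array 1 (1.36). No slide held both uninduced populations among the fitted arrays. On slide 3 the additional uninduced CD41+ progenitor array measured 6.87 for Aqp1 and 11.24 for Ephb4, and the uninduced myeloid progenitor arrays 8.67 to 9.38 and 10.02 to 10.27. Population and medium cannot be told apart. Within slide 3 the induced groups could be compared through 1 CD41+ progenitor array.

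**Figure D4:**
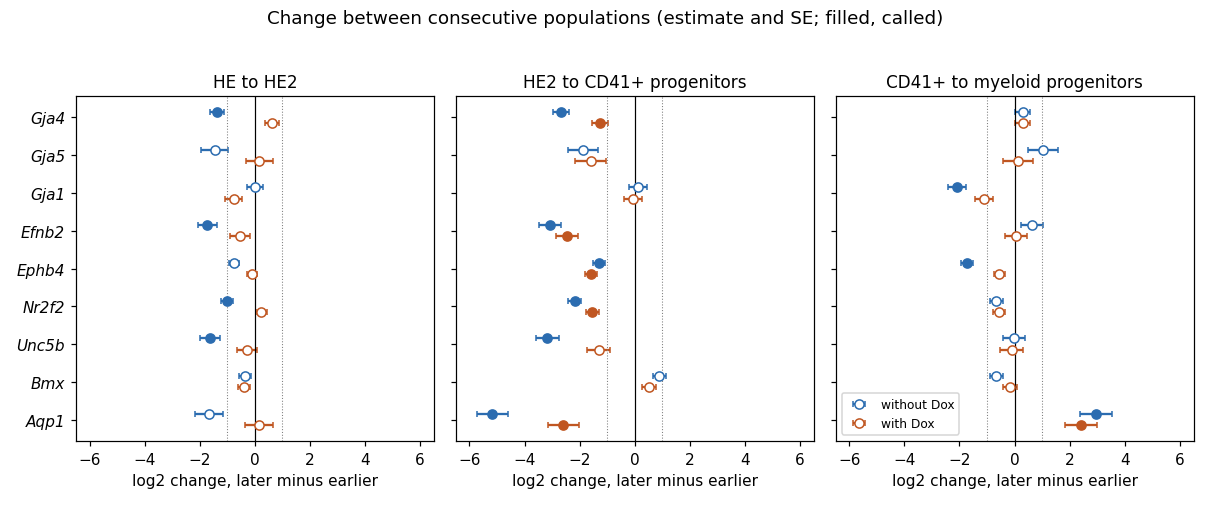
Change in log2 level between consecutive populations (x axis, later minus earlier) of each of the 9 genes (y axis), without Dox in blue and with Dox in orange. Points are estimates and bars their SE; filled points were called, and dotted lines mark a 2-fold change. From HE to HE2 the filled points are all blue, while from HE2 to CD41+ progenitors 6 genes fell without and 5 with Dox.

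The Dox response was then compared between populations by interaction terms. Between HE2 and HE, where 1.34% of all genes were called (0.625% up and 0.71% down), Gja4 (2.00, SE 0.36; adjusted P = 0.0118) and Nr2f2 (1.25, SE 0.29; adjusted P = 0.0474) differed, each with a more negative response in HE. The call of Nr2f2 was lost without uninduced HE array 1 (1.20), uninduced HE array 2 (1.22), induced HE array 3 (1.097), uninduced HE2 array 3 (1.14) or induced HE2 array 3 (1.13). Aqp1 differed by 1.81, Gja5 by 1.62, Unc5b by 1.33 and Efnb2 by 1.18, and none of these was called (adjusted P = 0.379 to 0.462). Between CD41+ progenitors and HE2, with 0.645% of all genes called (0.237% up and 0.408% down), limma called none of the 9, and 3 had an unadjusted P of at most 0.05 (Gja4 1.41, Aqp1 2.57 and Unc5b 1.87). Gja4 was called there without induced CD41+ progenitor array 2 (1.74) or uninduced myeloid array 1 (1.41), and Aqp1 without induced CD41+ progenitor array 1 (3.62). Between myeloid progenitors and HE, with 4.72% called (2.96% up and 1.76% down), 5 members differed, all with a higher response in myeloid progenitors: Aqp1 by 3.84 (SE 0.72; adjusted P = 0.00242), Gja4 by 3.40 (SE 0.36; adjusted P = 1.66e-05), Unc5b by 3.11 (SE 0.52; adjusted P = 0.00102), Nr2f2 by 2.00 (SE 0.29; adjusted P = 0.000355) and Ephb4 by 1.57 (SE 0.27; adjusted P = 0.00136). For Gja4 the direction turned, from a fall in HE to a rise in myeloid progenitors. For Unc5b and Nr2f2 the fall in HE stood beside levels near the bottom of their range in myeloid progenitors, where Dox gave -0.10 and 0.22. The time in Dox and the medium also differed between these populations.

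Other genes of arterial identity, a list of 14 with 13 tested, gave 1 rise and 1 fall with Dox in HE, 4 rises in HE2, 3 in CD41+ progenitors and 5 in myeloid progenitors, with medians of -0.21, 0.56, 0.46 and 0.42. Of all genes tested, 4.7, 5.17, 3.03 and 5.13% rose and 2.39, 2.05, 0.704 and 1.18% fell in these populations. Epas1, which encodes the hypoxia-inducible factor HIF-2α, rose in all 4 populations (1.62, 2.50, 2.23 and 1.73). Sox17, a SOXF factor of arterial endothelium, rose by 1.42 in HE2, 2.18 in CD41+ progenitors and 2.75 in myeloid progenitors, and its response differed between HE2 and HE (1.95; adjusted P = 0.0342). The Notch receptor gene Notch4 rose by 1.54 in HE2, 1.49 in CD41+ progenitors and 1.69 in myeloid progenitors. Of the Notch ligand genes, Jag2 fell by 1.25 in HE and Jag1 rose by 1.38 in myeloid progenitors. The BMP receptor gene Acvrl1 rose by 1.155 in HE2 and by 2.16 in myeloid progenitors. Notch1 was lower on every induced myeloid progenitor array (-1.14; adjusted P = 0.0151), short of a call. From HE to HE2 without Dox, with 5.07% of all genes called (2.67% down), 6 of these 13 genes fell. With Dox, with 3.1% of all genes called, limma called none of the 13, and 4 had an unadjusted P of at most 0.05. There Epas1 (-0.88), Notch4 (-0.90) and Hey2 (-0.83) were lower on every HE2 array, and Hey1 (0.75) was higher. Whether the steps differ is tested by the Dox response between HE2 and HE, which called 1 of the 13, Sox17.

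Of 5 other venous genes, 1 rose with Dox in HE, 2 in HE2, 1 in CD41+ progenitors and 3 in myeloid progenitors, and none was called lower. Nt5e was lower on every induced myeloid progenitor array (-1.25; adjusted P = 0.0293), short of a call. Emcn, the gene of endomucin, a sialomucin of venous and capillary endothelium, rose by 2.85 in HE2, 3.42 in CD41+ progenitors and 2.97 in myeloid progenitors. Flt4, which encodes the VEGF-C receptor VEGFR3, rose by 1.23 in HE, 1.29 in HE2 and 1.35 in myeloid progenitors. Nrp2, a coreceptor for semaphorins and VEGF, rose by 1.91 in myeloid progenitors. Rises thus came from the arterial and the venous list in each population, beside the endothelial markers given above, of which Emcn is also one. In HE this was 1 gene of each list, where 4.7% of all genes tested rose.

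**Figure D5:**
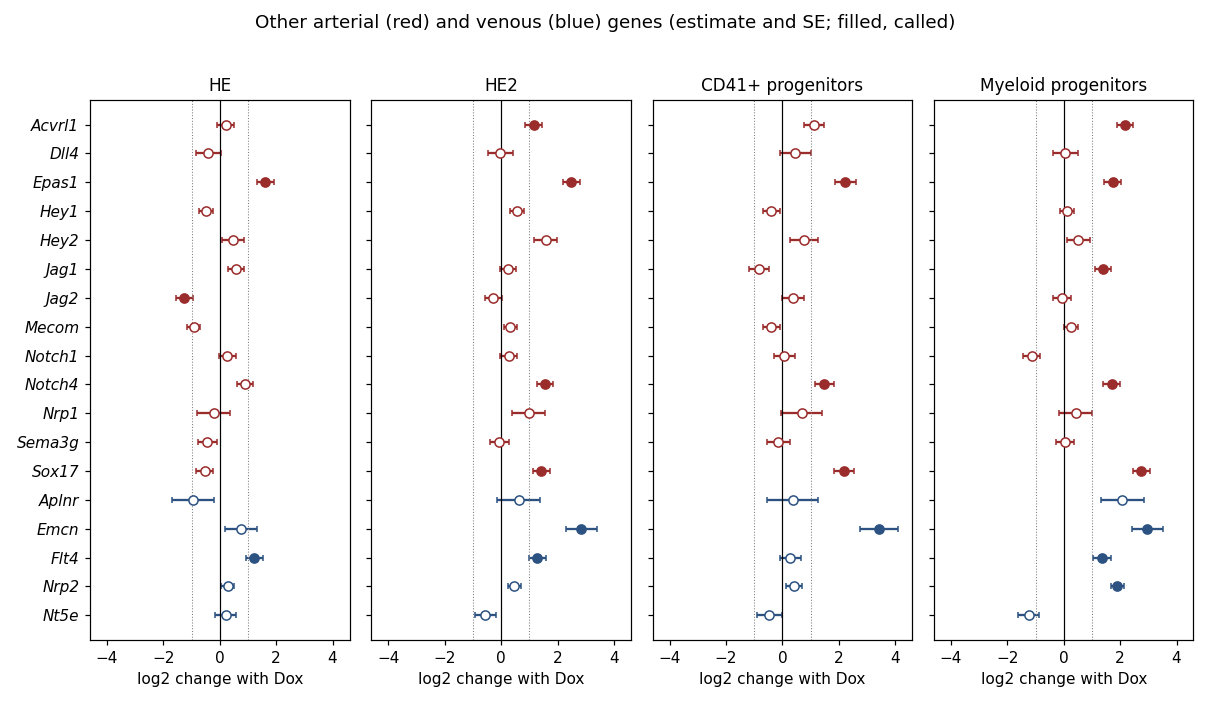
Change in log2 level with Dox (x axis) of 13 other arterial genes in red and 5 other venous genes in blue (y axis) in the 4 populations. Points are estimates and bars their SE; filled points were called, and dotted lines mark a 2-fold change. Apart from Jag2 in HE, every filled point lies to the right of 0.

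Counts called among partners and relatives of the 9 genes stand beside the shares of all genes called with Dox. These shares were 7.09% in HE, 7.22% in HE2, 3.73% in CD41+ progenitors and 6.31% in myeloid progenitors. Of 15 other ephrins and Eph receptors tested, 1 rose and 1 fell with Dox in HE, 1 rose and 1 fell in HE2, 2 rose in CD41+ progenitors, and 2 rose and 1 fell in myeloid progenitors. Efna1, the gene of ephrin-A1, rose in all 4 (1.46, 2.65, 2.58 and 2.30), Efna5 rose in both progenitor populations (1.22 and 1.41), Epha1 fell in HE (-1.17), and Efnb1, a paralog of Efnb2, fell in HE2 (-1.29) and myeloid progenitors (-1.35). Of 7 Unc5 relatives and ligands tested, 2, 3, 3 and 4 rose in HE, HE2, CD41+ and myeloid progenitors, and none fell. Robo4, an endothelial receptor that binds UNC5B, rose in all 4 (1.72, 2.64, 3.09 and 3.35), and the UNC5 ligand gene Flrt3 by 2.37, 2.58 and 3.33 in the last 3. The paralog Unc5a rose by 1.92 in HE and 1.89 in HE2, where Unc5b fell, and by 1.535 in myeloid progenitors. Unc5c, another paralog, rose by 2.785 in myeloid progenitors, and the netrin gene Ntn3 by 1.23 in CD41+ progenitors.

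Of 9 other connexins tested, Gja6 was the only one called with Dox, with rises of 2.15 in HE2 and 3.63 in CD41+ progenitors. Of 7 other aquaporins tested, Aqp8 was the only one called with Dox, with rises of 1.65 in HE, 2.75 in HE2 and 2.83 in CD41+ progenitors. Neither of the Nr2f2 relatives (Nr2f1 and Nr2f6) and none of 3 other Tec kinases tested was called with Dox by limma (with 5 of 8 and 3 of 12 unadjusted P values of at most 0.05), although the responses of Nr2f1 (1.33; adjusted P = 0.0181) and of the Tec kinase gene Btk (-1.70; adjusted P = 0.0332) differed between HE2 and HE.

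Across the 8 group means, the genes most like each member were named as a description, since the points share arrays and most genes that fell along differentiation correlate. Efnb2 was most like Npdc1 (r = 0.998) and Slc1a2 (r = 0.995), Ephb4 like Coro2b and Ecscr (both r = 0.996), and Gja4 like Pdlim1 (r = 0.978) and Adamts9 (r = 0.969). Gja5 was most like Clec1a (r = 0.980) and Pik3r3 (r = 0.977), and Gja1 like Upf3a and Btd (both r = 0.988). For Nr2f2 these genes were N4bp3 and Cdc42ep1 (both r = 0.994), for Unc5b Pfn2 (r = 0.984) and Tmem44 (r = 0.983), for Bmx Mymk (r = 0.985) and Zfp384 (r = 0.975), and for Aqp1 Cd93 (r = 0.978) and Polr2g (r = 0.977). Among the members, Nr2f2 and Unc5b correlated most closely (r = 0.953), followed by Efnb2 and Ephb4 (r = 0.906) and by Gja4 and Gja5 (r = 0.903), while Bmx had r below 0 with every member except Gja1 (r = 0.398).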

How the data were processed

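The 23 samples were each hybridised to a 1-colour Agilent mouse array. The files that the authors deposited hold the median intensity of every spot and its local background from Feature Extraction (10.7.3.1 per the file headers, 10.7.1.1 per the labels), not normalized between arrays. They also deposited log2 values, corrected for background and quantile normalized, which were used as an alternative. Of those columns, 17 ranked the spots as their own scanner file did and 6, replicates 2 and 3 of induced HE, HE2 and myeloid progenitors, as the file of the other number, which leaves group means as they are. Numbers here follow the scanner files.

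Median intensities were corrected with normexp (offset 16) and quantile normalized over 23 arrays, and 3671 control spots and outlier spots were left out. Probes were named by accession through RefSeq records of GRCm38.p6. The probe with the highest mean stood for a gene, and genes reaching a log2 intensity of 6.5 on at least 1 array were tested. Group means were fitted to 22 arrays with limma 3.58.1 in R 4.3.3 (package data.table, version 1.17.8), with 14 residual degrees of freedom. The additional uninduced CD41+ progenitor array, whose title names it a technical replicate, was left out of the fit. Induced myeloid progenitor array 3, called biological in its title and technical in its source name, was kept. The number of arrays limits the precision.

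The 9 genes and the gene lists were chosen with earlier results of these data known. Outside the 9, genes of the lists were named if called with Dox or in an interaction, with values for genes among the 2 largest rises or falls of a comparison, and with the 2 genes of most like pattern per member. Some list genes outside this rule were also named, where changes fell short of the threshold or went the other way. Deviations from the group means correlated between uninduced HE and HE2 arrays of equal number (r = 0.394, 0.795 and 0.608 across genes), so that the numbers were taken to pair them. In both groups arrays 1 and 2 lay on slide 1 and array 3 on slide 2, so that a shared slide and a shared culture cannot be told apart. The main fit held no block for this pairing, which entered only as the replicate block among the alternatives. For the other comparisons the numbers were not taken to pair arrays. The fit was also run on simulated data with independent noise and no slide or pairing effects, and no result here rests on that run. Alternatives covered the background correction, scaling, filters, probes, thresholds, samples fitted, slide, replicate number and each array left out in turn.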

Additional observations from a re-analysis of the deposited data

Results flagged for a closer look

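The Dox responses of 5 genes differed between populations by interaction terms. Between HE2 and HE these were Gja4 (2.00) and Nr2f2 (1.25, a call lost without any of 5 arrays). Between myeloid progenitors and HE these were Aqp1 (3.84), Gja4 (3.40), Unc5b (3.11), Nr2f2 (2.00) and Ephb4 (1.57), and the medium, the slide and the time in Dox differ between these populations as well, so that their parts cannot be told apart. All 7 differences are on the log2 scale and positive, with the lower response in HE.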

How the results depend on the processing

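Of 39 pairs of a gene and a comparison called, 15 were called under every alternative that gave a value, and no call reversed. Of 78 pairs not called, 20 were called under at least 1 alternative. With each fit limited to the groups compared, 8 of 36 Dox pairs were called in place of 13, without Gja4 and Aqp1 in CD41+ progenitors, Gja4 and Efnb2 in myeloid progenitors and Ephb4 in HE2, and the cause was not tested. Between populations, 13 pairs were called in such fits and 14 with the slide as a block, in place of 19. With a 2-fold change alone as the threshold, 15 differences in the Dox response between populations passed in place of 7. Leaving out each array in turn gave 12 to 14 Dox calls, 17 to 19 calls between populations (19 with all arrays) and 6 to 8 differences in the Dox response. With the mean of a gene's probes the Dox calls were 9, with the Efnb2 calls among those lost.

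With the replicate block, 14 Dox pairs, 21 pairs between populations and 7 differences in response were called. The pairs gained were Gja5 from HE to HE2 (given above) and from HE2 to CD41+ progenitors without Dox (-1.62; adjusted P = 0.0147) and Aqp1 with Dox in HE (-1.77; adjusted P = 0.00773), and no call was lost. Apart from uninduced HE and HE2, the arrays share only a number. With early stages and myeloid progenitors normalized apart, the Dox calls of Gja4 (1.30) and Efnb2 (1.70) in myeloid progenitors and of Aqp1 in CD41+ progenitors (2.62) were lost, and comparisons across them gave no value. The fall of Nr2f2 from HE to HE2 without Dox was also not called with a normexp offset of 50 (-0.96) or with the deposited log2 values (-0.97). All myeloid progenitor arrays measured Nr2f2 below 6.5, the level set for testing a gene.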

Other observations

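The additional array of uninduced CD41+ progenitors, on slide 3, correlated with r = 0.983 with each of the other 2 uninduced CD41+ progenitor arrays. Its log2 intensities were 9.49 for Gja4, 8.49 for Gja1, 7.04 for Efnb2, 11.24 for Ephb4, 6.34 for Nr2f2, 9.14 for Unc5b, 8.20 for Bmx and 6.87 for Aqp1, and 5.57 for Gja5, which was not well above background there. With it as array 3 of its group, Ephb4 with Dox in CD41+ progenitors was called (1.07; adjusted P = 0.00743 with limma), as were Gja5 from HE2 to CD41+ progenitors without Dox (-1.93) and Gja4 in the difference of Dox response between CD41+ progenitors and HE2 (1.51).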
